A study of Mus musculus with 18 samples.

Results

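The Transient GATA6-only primed enhancers are 1495 of the 42403 regions that GATA6 bound during induced differentiation of mouse embryonic stem (ES) cells, or 3.53% of them. They were chosen by 4 classes that the authors deposited for each region: Transient GATA6 binding, no peak of a pluripotency transcription factor (PTF), no SOX17 peak, and the primed enhancer state of histone marks in undifferentiated ES cells. The choice therefore rests on measured values, and none of these 4 classes is treated as a result here. The members made up 9.18% of the 16285 Transient regions, 20.9% of the 7146 primed regions and 63.4% of the 2357 primed regions bound by GATA6 without a PTF or SOX17. The values of the histone marks were not used here, nor was the GATA6 signal over time, so the labels primed and Transient were taken as deposited and not checked.

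The study expressed Gata6 from a doxycycline (Dox) inducible cassette in KH2 ES cells of C57BL/6 x 129/Sv background, grown with serum and LIF on feeder fibroblasts, and its methods name a pair of clones. The series holds 18 MNase-seq libraries, which map nucleosomes, in 6 groups of 3 replicates: untreated cells (d0) and cells given 1 µg/mL Dox for 8, 16, 24, 48 and 96 h. The cassette was present in every group, untreated cells included. The columns of the region table used here hold no value of any of these libraries, so there are no per-library values or depths to give, and the units are regions.

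GATA6 is a zinc-finger transcription factor that recognises GATA sites in DNA and drives the primitive endoderm (PrE) fate, the extraembryonic lineage that arises beside the pluripotent epiblast. Primed enhancers carry H3K4me1 without the acetylation found at active enhancers, and they are usually regarded as marked but not engaged. OCT4, SOX2 and ESRRB are PTFs that hold ES cells in the pluripotent state, with OCT4 and SOX2 often bound together on a composite motif, and SOX17 is an endoderm factor that acts after GATA6.

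The sites with which GATA6 could contact these regions are shown first, as read from the GRCm38 genome. The GATA6 matrix used to score the regions has the best-scoring sequence gggAGATAAgaaa, in which the capitals mark the AGATAA core, and it scores 15.213. Among the members, 4 were named for the highest best-motif score with the motif centre within 50 bp of the GATA6 summit, the base of maximal GATA6 signal. They are given with 24 bases on each side, on the strand of the motif, with the 13-base motif in capitals.
Nags: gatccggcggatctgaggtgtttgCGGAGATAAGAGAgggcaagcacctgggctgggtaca
Gm11733: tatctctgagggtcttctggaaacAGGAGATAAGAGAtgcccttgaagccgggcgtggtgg
Dmd: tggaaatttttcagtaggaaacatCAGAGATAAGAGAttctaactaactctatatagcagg
Ptdss1: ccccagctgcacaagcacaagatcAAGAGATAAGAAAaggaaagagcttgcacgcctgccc

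Each line is headed by the protein-coding gene with the nearest transcript start in GENCODE M21, which is a position and not a target. The Nags sequence lies at chr11:102130100-102130160 on the minus strand, between genes and 15.4 kb from the start of Nags, which encodes an enzyme upstream of the urea cycle. It scored 15.083 and its region was closed at d0. The Gm11733 sequence, at chr11:117539567-117539627 on the plus strand, scored 15.046, was intergenic and was also closed. The Dmd sequence, at chrX:85076238-85076298 on the minus strand, scored 15.009 and fell in an intron of the dystrophin gene, in a closed region. The Ptdss1 sequence, at chr13:66991712-66991772 on the plus strand, scored 14.982 and lay 1.74 kb from the start of Ptdss1, a phosphatidylserine synthase gene, in an intron. Its region had moderate accessibility. All 4 share the AGATAAGA stretch, which the pick by score favours, and differ mainly in the bases before it. Before Gata6 was induced 3 of the 4 were closed, beside 55.9% of all members and 61.3% of all GATA6 regions.

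A contrasting set lacked a GATA6 motif altogether. Of the 14 members classed as accessible at d0, 5 had no GATA6 motif anywhere in the region, and 3 of these 5 had an OCT4:SOX2 motif. An OCT4:SOX2 motif was in 74.1% of all members and 71.5% of all GATA6 regions, so having one is not particular to this set. They are shown with 23 bases on each side of that 15-base motif, which is in capitals, on the plus strand.
Sdc2: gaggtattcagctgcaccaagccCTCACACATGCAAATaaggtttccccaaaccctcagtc
Cemip: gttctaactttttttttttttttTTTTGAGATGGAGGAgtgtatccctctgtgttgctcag
Ap1ar: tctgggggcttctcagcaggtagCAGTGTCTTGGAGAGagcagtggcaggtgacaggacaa

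The Sdc2 sequence, at chr15:32934894-32934954 in an intron of the syndecan-2 gene, scored 10.122 and ends in the octamer ATGCAAAT, the site read by the POU domain of OCT4. The Cemip and Ap1ar sequences, at chr7:83994584-83994644 in an intron and chr3:127851299-127851359 between genes, scored 8.0325 and 6.9268 and hold no octamer. Both scores are below 8.528, the median best OCT4:SOX2 score of members with that motif. Other motifs were present too: the best ESRRB motif scored 13.772 at Cemip and 13.842 at Ap1ar. The best SOX17 motif scored 11.341 at Sdc2 and 11.079 at Cemip. The windows of 100 bp on each side of these 3 summits were 43.8%, 65.7% and 75.1% soft-masked, the mark that the genome file gives to repeats.

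The member with the most GATA6 motifs had 20 of them in 1097 bp at chr19:29696618-29697714. The 100 bp on each side of its summit, at chr19:29697041-29697241 and 683 bp from the start of Mlana, are shown on the plus strand with the bases of 4 GATA6 motifs in capitals.
Mlana: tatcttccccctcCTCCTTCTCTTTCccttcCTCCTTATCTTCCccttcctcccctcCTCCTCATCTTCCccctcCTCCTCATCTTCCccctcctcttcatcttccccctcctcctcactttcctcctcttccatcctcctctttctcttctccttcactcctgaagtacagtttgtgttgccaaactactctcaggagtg

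The window was 79.6% soft-masked and is largely a run of C and T. The best motif of the region scored 13.009 and lay 250 bp from the summit, outside this window.

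Best GATA6 motifs were present in 1394 of the 1495 members (93.2%, 95% Wilson interval 91.9 to 94.4), against 89.7% of all GATA6 regions. Wilson intervals here and elsewhere cover counting error among regions only. Members had 1 motif in 414 regions, 2 in 436, 3 in 266, and 4 or more in 278, the last being 18.6% of members against 24.2% of all regions. Among the 1377 best motifs of full length, 1230 sequences were distinct, so the members did not share a particular site. The 6-base core was AGATAA in 880 (63.9%), TGATAA in 237 (17.2%) and AGATAG in 40 (2.9%), and GATA itself was kept in 1190 (86.4%). The most frequent 13-base sequences occurred in 4 members each, and there were 6 of them. They are shown with the 6-base core in capitals, which is AGATAA in all but the sixth.
shared site 1: aggAGATAAgaag
shared site 2: aagAGATAAgagg
shared site 3: ggcAGATAAaagg
shared site 4: cagAGATAAggaa
shared site 5: ttgAGATAAggtc
shared site 6: gatAGATTAgata

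The shared sites scored 14.67, 14.58, 10.25, 13.69, 12.34 and 8.991. Each made up 0.29% of the 1377 best motifs of full length in the members. Among the 37547 such motifs of all GATA6 regions they made up 0.0639%, 0.0426%, 0.296%, 0.0666%, 0.131% and 0.0186%, in the same order. They were picked as the most frequent in the members, so these shares are descriptions. Strands were even, with 694 of 1394 best motifs on the plus strand (49.8%).

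GATA6 motifs were concentrated at the summit. The median distance between the best GATA6 motif and the summit was 40 bp (quartiles 17.25 and 93), and 57.2% of the 1394 lay within 50 bp (54.6 to 59.8). The best OCT4:SOX2 motif lay at a median of 92 bp in the 1108 members that had one, with 33% within 50 bp (30.3 to 35.9). The best SOX17 and ESRRB motifs lay farther out, with 23.8% of 928 and 25.9% of 636 within 50 bp. The summit window is the summit base with 100 bp on each side. In the bin of 20 bp centred on the summit, 20.1% of members had a GATA6 motif, against 4.24% per bin in control windows. These are 2881 windows of the same size centred 3 kb to either side of the member summits, overlapping no GATA6 region. An excess of GATA6 motifs over such windows is built into the choice of summits and is a description. The same bin held an OCT4:SOX2 motif in 8.29% of members against 4.91% per control bin, a SOX17 motif in 5.89% against 3.57%, and an ESRRB motif in 2.88% against 1.34%.

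**Figure D1:**
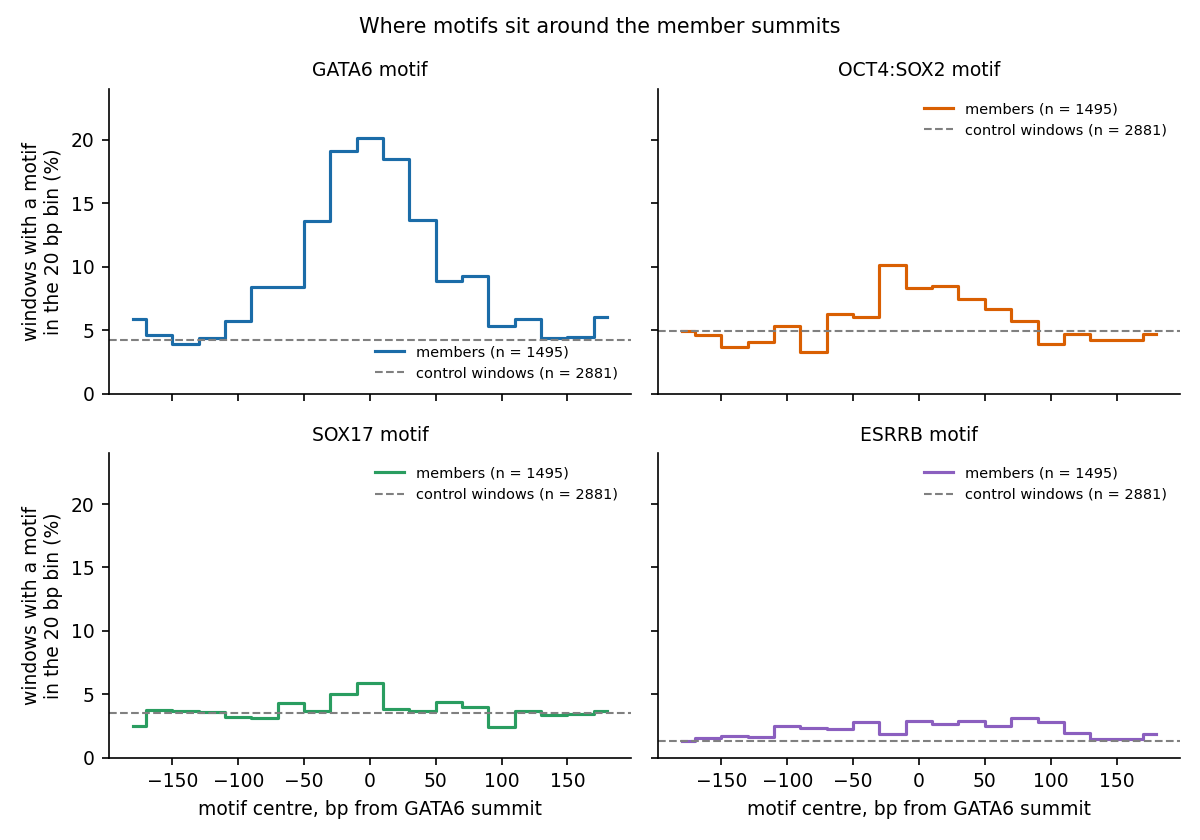
Share of the 1495 member windows (vertical axis, %) with a GATA6, OCT4:SOX2, SOX17 or ESRRB motif centred in each 20 bp bin of distance from the GATA6 summit (horizontal axis, bp). Solid lines are members and dashed lines the mean per bin in 2881 control windows; GATA6 motifs reach 20.1% at the summit and the OCT4:SOX2 line rises to 10.1% beside it.

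Within the summit window, 736 members had 1 GATA6 motif, 518 (34.6%) had 2 or more, and 241 had none. Where there were several, the centres of the closest 2 lay a median of 36 bp apart (quartiles 12.25 and 72), and in 130 of the 518 they overlapped. Motifs of the other factors often shared the window. OCT4:SOX2 and GATA6 motifs occurred together in 595 members (39.8%, 37.3 to 42.3), GATA6 motifs without any of the other 3 in 359 (24%), all 4 motifs in 38 (2.54%), and none of the 4 in 53 (3.55%). Over all GATA6 regions these shares were 31.9%, 23.2%, 1.91% and 5.86%.

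Short sequence words were compared next between the member windows and the control windows, since the 4 matrices cover only the factors of the study. Each word was searched on both strands, and the share of windows that held it was tested with Fisher's exact test (two-sided), adjusted over 16 words by Benjamini-Hochberg. Some words overlap a matrix: AGATAA is the core of the GATA6 matrix, ACAATG and ACAAAG are SOX cores, ATGCAAAT belongs to the OCT4:SOX2 motif and AAGGTCA to that of ESRRB. At member summits 8 words were more frequent and 1 was less frequent. The test did not pair each member summit with its own control windows. The control windows were not matched for GC content, and the part of base composition in the word differences was not tested. The GATA word AGATAA was in 61.3% of member windows (58.8 to 63.7) and 11.4% of control windows (10.3 to 12.6), a log2 odds ratio of 3.62 (3.40 to 3.85, adjusted p = 3.33e-258), and in 54.3% of the windows of all GATA6 regions. Member windows are centred on the maximal GATA6 signal and control windows overlap no GATA6 region. An excess of this word is therefore built into the choice of windows, and its value is a description.

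The nuclear receptor site AAGGTCA, read by ESRRB and NR5A2, was the next most enriched of the words that passed. It was in 12.6% of member windows against 3.71% of control windows (log2 odds ratio 1.90, 1.54 to 2.25, adjusted p = 7.17e-26), and in 7.06% of all GATA6 windows. CCACACCC, a word of KLF and SP factors, was in 5.02% against 1.42% (log2 odds ratio 1.87, adjusted p = 6.98e-11) and in 4.58% of all GATA6 windows. GGAATG, the TEAD word, was in 17.1% against 9.93% (0.91, adjusted p = 7.63e-11; 18.8% of all), and ACAAAG, a SOX word, in 25.8% against 18% (0.66, adjusted p = 8.28e-09; 29% of all).

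The octamer ATGCAAAT was rarer but also above control, in 2.94% of member windows against 1.18% (log2 odds ratio 1.34, 0.69 to 2.0, adjusted p = 0.000125), with 3% in all GATA6 windows. GGGCGG, a second KLF and SP word, was in 5.08% against 2.85% (0.87, adjusted p = 0.000606; 6.45% of all), and the TFAP2 word GCCNNNGGC in 5.82% against 3.51% (0.77, adjusted p = 0.000908; 4.67% of all). CCAAT, the box bound by NF-Y, was the word that was less frequent, in 21.3% against 27.2% (log2 odds ratio -0.47, -0.68 to -0.25, adjusted p = 4.56e-05), and it was in 22.1% of all GATA6 windows.

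For 7 words no difference passed the adjusted threshold. The other SOX word, ACAATG, was in 12.5% of member and 10.9% of control windows (adjusted p = 0.156), and it was in 23% of all GATA6 windows. TGACTCA of AP-1 was in 3.68% and 2.85% (adjusted p = 0.176; 7.82% of all), CTTTGAT of TCF and LEF in 4.88% and 3.75% (0.125; 5.2% of all), and TGTTTAC of FOX factors in 3.01% and 2.64% (0.53; 6.16% of all). TTCNNNGAA of STAT factors was in 6.09% and 5.55% (adjusted p = 0.53; 7.07% of all), the E-box CACGTG in 2.27% and 2.53% (0.68; 2.64% of all), and AACCGGTT of GRHL in 0.134% and 0% (0.156; 0.0896% of all). A match is a run of letters, not evidence that the factor binds.

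**Figure D2:**
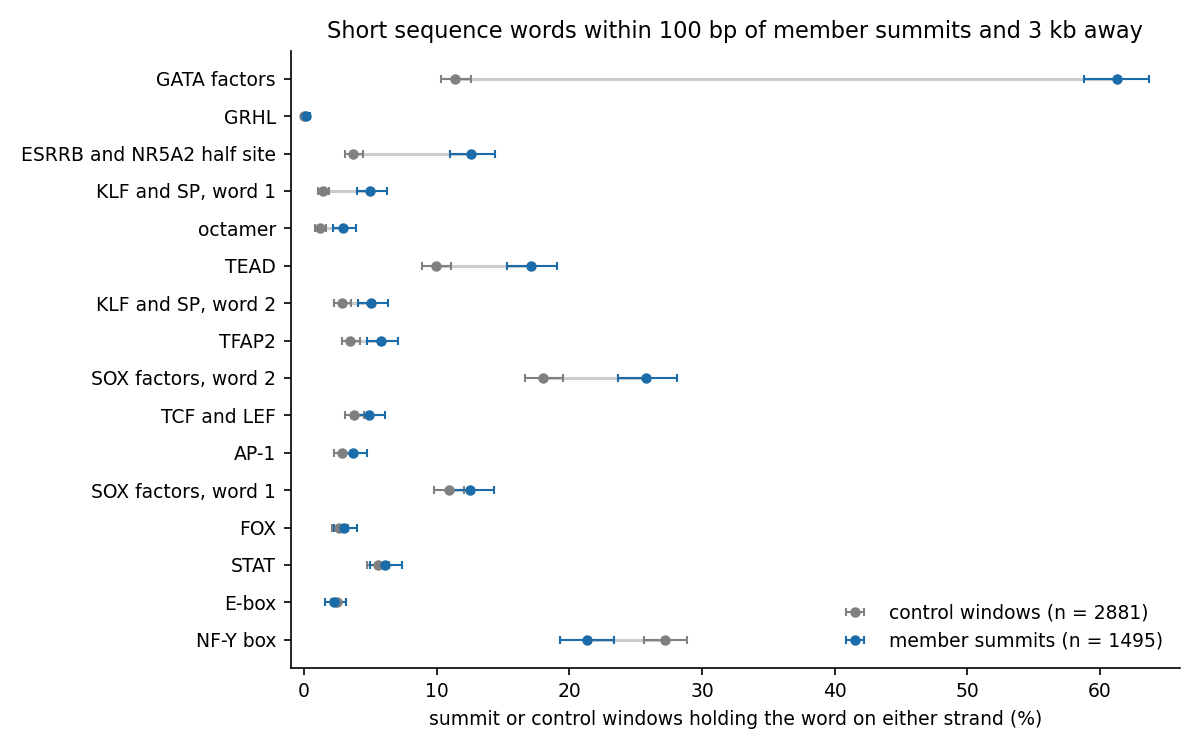
Share of windows of 100 bp on each side of a centre (horizontal axis, %) that hold each of 16 short words on either strand, at the 1495 member summits (blue) and in 2881 control windows 3 kb away (grey), with 95% Wilson intervals; words are ordered by odds ratio. The GATA word, whose excess is built into the choice of windows, stands apart at 61.3% against 11.4%. The NF-Y box is the word that lies lower at the summits and passed the test.

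The members were then set against 3 classes that each differ from them in 1 of the deposited classes. These were 1224 Transient primed enhancers with PTFs from d0 and no SOX17 (PTF-bound primed), 307 primed enhancers with Early&Constant GATA6 binding and neither PTF nor SOX17 (Early primed), and 882 Transient active enhancers with neither PTF nor SOX17 (active). For 10 features that are not themselves classes of the rule, the share of regions was tested in the same way, giving 30 tables adjusted together. A positive log2 odds ratio means more frequent in the members. Of the 30, 25 passed an adjusted p of 0.05. The 25 include the contrasts of OCT4:SOX2, SOX17 and ESRRB motifs with PTF-bound primed regions. These are tied to the choice by PTF peaks and are descriptions. Region width, which comes from the same GATA6 libraries as the choice and is given as a description, had a median of 496 bp in the members, 658 bp in PTF-bound primed, 551 bp in Early primed and 522.5 bp in active regions. Nearby regions are not independent, so the number of the 20 chromosomes with the pooled direction is given, and the tests concern these regions and not replicate experiments. A chromosome with equal shares in both classes counts as lacking that direction.

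**Figure D3:**
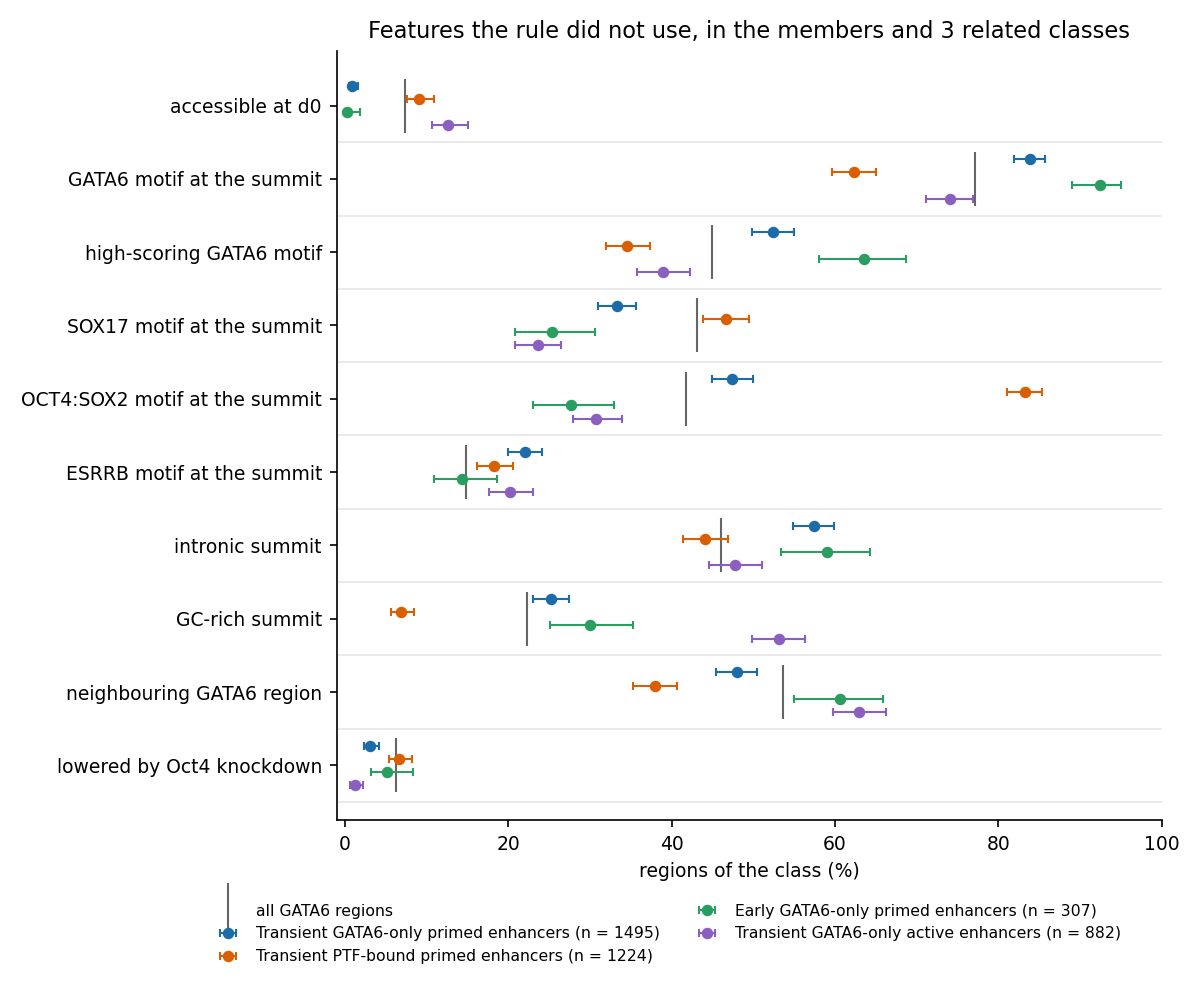
Share of regions (horizontal axis, %) with each of 10 features in the 1495 members, 1224 PTF-bound primed, 307 Early primed and 882 active regions, with 95% Wilson intervals; vertical ticks give all 42403 GATA6 regions. The members lie between the PTF-bound primed and the Early primed regions in GATA6 motifs. They lie far below the PTF-bound primed regions, which were chosen for PTF peaks, in OCT4:SOX2 motifs.

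The members were rarely in the accessible class before Dox. In the ATAC-seq class at d0, 836 members were closed (55.9%, 53.4 to 58.4), 645 moderate (43.1%) and 14 accessible (0.936%, 0.559 to 1.57). Over all GATA6 regions these shares were 61.3%, 31.2% and 7.43%. The members were thus less often closed and more often moderate than GATA6 regions in general. The accessible share was 9.15% in PTF-bound primed regions (log2 odds ratio -3.41, -4.22 to -2.60, adjusted p = 3.61e-25, 20 of 20 chromosomes), and within 10 bins of region width the value was -4.68. It was 12.7% in active regions (-3.94, -4.75 to -3.13, adjusted p = 1.39e-34, 20 of 20). In Early primed regions 1 of 307 was accessible, and the difference did not pass (1.53, -1.40 to 4.46, adjusted p = 0.507, 8 of 20). Chromosomes with no accessible region in either class were counted as lacking the direction, so 8 of 20 does not mean an opposite direction on the others. When moderate regions were also counted as open, the members were more often open than Early primed regions (0.84, adjusted p = 1.12e-05).

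A GATA6 motif lay in the summit window of 1254 members (83.9%, 81.9 to 85.7), against 32.9% of control windows and 77.1% of all GATA6 regions. The share was lower in PTF-bound primed regions, at 62.3% (log2 odds ratio 1.65, 1.39 to 1.91, adjusted p = 1.56e-36, 20 of 20 chromosomes), and within the 3 accessibility classes the value was 1.07. It was higher in Early primed regions, at 92.5% (-1.25, -1.89 to -0.60, adjusted p = 6.6e-05, 18 of 20), and -0.57 in windows of 50 bp on each side. Active regions had 74.1% (0.86, 0.56 to 1.15, adjusted p = 2.97e-08, 17 of 20), but the value for active regions was 0.54 in windows of 50 bp on each side and 0.05 within accessibility classes (adjusted p = 0.796).

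The same order held for motif quality. A best GATA6 score of at least 10.18, the median over all regions with a motif, was found in 784 members (52.4%), 34.6% of PTF-bound primed, 63.5% of Early primed and 39% of active regions, beside 44.9% of all GATA6 regions. The log2 odds ratios were 1.06 (0.83 to 1.28, adjusted p = 6.18e-20), -0.66 (-1.02 to -0.29, adjusted p = 0.000596) and 0.79 (0.54 to 1.03, adjusted p = 5.21e-10), with the direction on 20, 15 and 18 of 20 chromosomes. Within accessibility classes the value against PTF-bound primed regions was 0.59 (adjusted p = 5.11e-06) and that against active regions 0.16 (adjusted p = 0.32). Within bins of width the value against PTF-bound primed regions was 1.84. The median best score was 10.74 in the members, 9.444 in PTF-bound primed, 11.43 in Early primed and 9.731 in active regions with a motif.

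Among the members themselves, closed regions had the higher-scoring motifs. A GATA6 motif was at the summit of 89.8% of closed members (87.6 to 91.7), 76.6% of moderate members (73.2 to 79.7) and 9 of 14 accessible members. The median best score was 11.2 in the closed, 10.06 in the moderate and 9.13 in the accessible members that had a motif. No GATA6 motif was found anywhere in 31 closed members (3.71%), 65 moderate members (10.1%) and 5 accessible members. Closed and moderate members were of like width, with medians of 493 and 503 bp, while the 14 accessible members had a median of 311 bp. These splits are descriptions without a test.

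**Figure D4:**
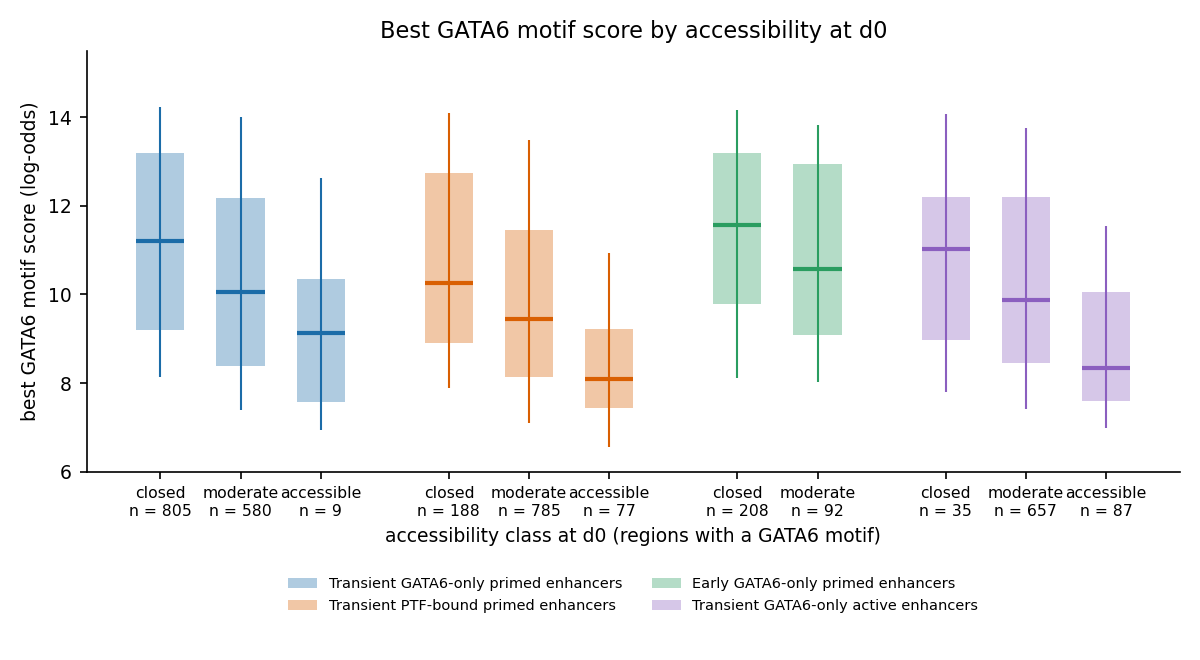
Best GATA6 motif score (vertical axis, log-odds) of regions with a motif, by accessibility class at d0, in the members and 3 related classes. Boxes span the quartiles, thick lines are medians and thin lines run from the 10th to the 90th percentile; member medians go from 11.2 in closed to 9.13 in accessible regions, and Early primed regions with fewer than 5 values are not drawn.

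Of the 4 motifs at the summit, OCT4:SOX2 gave the largest odds ratio between the members and their PTF-bound counterparts. The rule split these classes by called PTF peaks, OCT4 and SOX2 among them. This contrast is therefore tied to the choice and is a description. It lay at 709 member summits (47.4%, 44.9 to 50), against 36.5% of control windows and 41.8% of all GATA6 regions, and at 83.3% of PTF-bound primed summits (log2 odds ratio -2.47, -2.73 to -2.21, adjusted p = 4.3e-86, 20 of 20 chromosomes). Although no PTF peak was called in them, the members held this motif more often than Early primed regions, at 27.7% (1.24, 0.85 to 1.63, adjusted p = 3.36e-10, 18 of 20), and active regions, at 30.8% (1.02, 0.76 to 1.27, adjusted p = 6.51e-15, 18 of 20). The best OCT4:SOX2 score had a median of 8.528 in the 1108 members with a motif in the region and 11.1 in the 1186 PTF-bound primed regions with one, a description without a test.

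SOX17 motifs gave a smaller contrast. They lay at 33.3% of member summits (31 to 35.7), 29.7% of control windows and 46.7% of PTF-bound primed summits (log2 odds ratio -0.81, adjusted p = 4.56e-12, 17 of 20 chromosomes). SOX2, also a SOX factor, is among the PTFs whose peaks split these classes. This contrast with PTF-bound primed regions is therefore tied to the choice too and is a description. Early primed regions had 25.4% (0.55, 0.15 to 0.95, adjusted p = 0.00892, 16 of 20) and active regions 23.6% (0.69, 0.42 to 0.97, adjusted p = 9.38e-07, 17 of 20). Among all GATA6 regions, which include the SOX17-bound ones that the rule left out, the share was 43.1%.

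ESRRB motifs were at 330 member summits (22.1%, 20 to 24.2), against 11.9% of control windows and 14.9% of all GATA6 regions. The share exceeded that of Early primed regions, at 14.3% (log2 odds ratio 0.76, 0.27 to 1.25, adjusted p = 0.00268, 15 of 20 chromosomes), and in windows of 200 bp on each side the value was 0.47. ESRRB peaks were among the PTF peaks by which the rule split the members from PTF-bound primed regions. That contrast is therefore tied to the choice and is a description. Against PTF-bound primed regions, at 18.3%, the value was 0.34 (0.07 to 0.61, adjusted p = 0.02, 15 of 20), and it no longer passed in windows of 50 bp (0.37, adjusted p = 0.0557) or 200 bp on each side (0.19, adjusted p = 0.119). Against active regions, at 20.2%, it did not pass (0.16, -0.13 to 0.46, adjusted p = 0.322, 14 of 20), but within accessibility classes it did (0.49, adjusted p = 0.00749).

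Base composition placed the members between the other Transient classes. The summit window had a GC content of 50% or more in 378 members (25.3%, 23.1 to 27.5), 22.3% of all GATA6 regions, 6.94% of PTF-bound primed regions (log2 odds ratio 2.18, 1.82 to 2.54, adjusted p = 2.58e-38) and 53.1% of active regions (-1.74, -1.99 to -1.49, adjusted p = 7.96e-41), with the direction on 20 of 20 chromosomes in both. Early primed regions had 30% (-0.34, -0.73 to 0.05, adjusted p = 0.112, 13 of 20). The median GC content was 46.77% in the members and 42.79% in PTF-bound primed regions. The part of base composition in the motif differences was not tested. Most of the window was soft-masked in 13.8% of members and in 22.9%, 9.12% and 8.96% of PTF-bound primed, Early primed and active regions.

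Most member summits were intronic. They lay in an intron and over 1 kb from any transcript start in 858 cases (57.4%, 54.9 to 59.9), between genes in 486 (32.5%), within 1 kb of a transcript start in 99 (6.62%) and in other exons in 52 (3.48%). The intronic share was 46% in all GATA6 regions, 44.1% in PTF-bound primed regions (log2 odds ratio 0.77, 0.55 to 0.99, adjusted p = 1.71e-11, 17 of 20 chromosomes) and 47.8% in active regions (0.55, 0.31 to 0.80, adjusted p = 1.35e-05, 16 of 20), the last being 0.32 within accessibility classes (adjusted p = 0.0373). It was 59% in Early primed regions (-0.09, -0.45 to 0.27, adjusted p = 0.657, 11 of 20). The median distance to a transcript start was 9.233 kb. Members were found on 20 chromosomes, where they made up 1.64% (chromosome 8) to 4.58% (chromosome 9) of the GATA6 regions, with a median of 3.61%.

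Another GATA6 region lay within 10 kb of 717 member summits (48%, 45.4 to 50.5), against 53.6% of all GATA6 regions. The share was 38% for PTF-bound primed (log2 odds ratio 0.59, 0.37 to 0.81, adjusted p = 3.72e-07, 19 of 20 chromosomes), 60.6% for Early primed (-0.74, -1.10 to -0.38, adjusted p = 8.8e-05, 15 of 20) and 63% for active regions (-0.89, -1.13 to -0.64, adjusted p = 3.5e-12, 17 of 20). At a distance of 50 kb these values were 0.99, -1.49 and -1.55. Of the 717 nearest neighbours, 330 (46%) were Transient, 227 (31.7%) Early and 160 (22.3%) Late, beside 38.4%, 28% and 33.6% of all GATA6 regions. Primed neighbours made up 28.3% (16.9% of all regions), SOX17-bound neighbours 40.2% (44.5%), neighbours with PTFs from d0 24.8% (20.8%) and other members 7.25% (3.53%).

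GATA6 binding at the members was rarely called changed by Oct4 knockdown. The class given by the authors compared Oct4 and control siRNA 48 h after Dox. A call depends on the GATA6 reads in a region at that time, which were not used here. A low share of calls is therefore not evidence of unchanged binding. Binding was lowered at 47 members (3.14%, 2.37 to 4.16) and raised at 3 (0.201%, 0.0683 to 0.588). Over all 42403 regions it was lowered at 6.25% and raised at 8.57%. Raised binding was also rare in the 3 related classes, at 0.0817% of PTF-bound primed, 1.95% of Early primed and 0.454% of active regions, which were not tested against the members. Lowered binding was more frequent in PTF-bound primed regions, at 6.7% (log2 odds ratio -1.15, -1.67 to -0.62, adjusted p = 2.85e-05, 15 of 20 chromosomes), but within 10 bins of region width the value was -0.63 (adjusted p = 0.0527). It was less frequent in active regions, at 1.25% (1.36, 0.41 to 2.32, adjusted p = 0.00463, 14 of 20), although within accessibility classes it was 0.77 (adjusted p = 0.205). Early primed regions had 5.21% (-0.76, -1.60 to 0.08, adjusted p = 0.0997, 9 of 20).

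Of the 47 members with lowered binding, 17 had an OCT4:SOX2 motif at the summit (36.2%, 24 to 50.5), against 47.8% of the 1445 unchanged members (45.3 to 50.4), and these intervals overlap. A GATA6 motif lay at the summit of 83% and 83.9%, and 72.3% and 55.4% were closed at d0. These are descriptions of a small group.

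Finally, the members were placed beside genes of pluripotency, PrE and signalling, in lists chosen with earlier results of these data known and given without a test. Within 100 kb of a transcript start of the 30 pluripotency genes lay 10 members (0.669%, 0.364 to 1.23), beside 0.799% of all GATA6 regions. Near the 30 PrE genes lay 4 members (0.268%, 0.104 to 0.686), beside 1.04% of all regions. Near the 40 FGF, WNT, NODAL, BMP and LIF signalling genes lay 15 members (1%, 0.609 to 1.65), beside 0.95% of all regions. A member was within 100 kb of 8, 4 and 11 genes of the respective lists, while some GATA6 region was near every gene of the 3 lists.

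Members near these genes are given with their best GATA6 motif in capitals and 24 bases on each side, on the motif strand, because they place the class at known loci.
Nanog: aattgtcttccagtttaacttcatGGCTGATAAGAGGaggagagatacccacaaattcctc
Tfcp2l1: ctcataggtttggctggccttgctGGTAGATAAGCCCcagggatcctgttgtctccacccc
Nr0b1: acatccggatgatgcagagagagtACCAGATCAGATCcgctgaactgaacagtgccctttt
Jarid2: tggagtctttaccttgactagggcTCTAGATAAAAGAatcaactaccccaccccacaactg
Lamc1: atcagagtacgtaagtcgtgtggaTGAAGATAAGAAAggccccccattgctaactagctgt
Sparc: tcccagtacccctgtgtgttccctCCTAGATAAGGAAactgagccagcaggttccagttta
Pth1r: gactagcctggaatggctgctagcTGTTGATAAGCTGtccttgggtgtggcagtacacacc
Fgfr2: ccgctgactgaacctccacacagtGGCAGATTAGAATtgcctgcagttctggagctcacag
Fgfr1: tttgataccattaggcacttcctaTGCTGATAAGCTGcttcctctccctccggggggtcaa
Lgr4: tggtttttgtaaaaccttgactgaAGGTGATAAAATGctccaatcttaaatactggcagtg

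At the pluripotency genes, the member nearest to Nanog, which encodes a core homeodomain factor, lay 12720 bp from a transcript start between genes, with the sequence at chr6:122720203-122720263 on the plus strand. It had moderate accessibility, a score of 11.843 and no OCT4:SOX2 or ESRRB motif. The member in an intron of Tfcp2l1, a factor of naive pluripotency, lay 27494 bp from a start, with the sequence at chr1:118655380-118655440 on the minus strand, a score of 10.732 and moderate accessibility. The member nearest of all in this list was 3743 bp from Nr0b1, a nuclear receptor gene, with its summit in coding sequence of that gene, closed at d0 and with a GATA6 score of 7.3426 at chrX:86195423-86195483 on the plus strand. A closed member in an intron of Jarid2, a Polycomb cofactor, was 18243 bp from a start and scored 8.7222, with its best motif 291 bp from the summit at chr13:44822127-44822187 on the minus strand.

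At the PrE genes, a closed member sat 286 bp from a start of Fgfr2, an FGF receptor that belongs to both the PrE and the signalling list, with the sequence at chr7:130196021-130196081 on the plus strand. It scored 9.9352 on an AGATTA core and also held an OCT4:SOX2 motif of score 11.179. The member in an intron of Lamc1, a laminin subunit of the basement membrane that PrE cells lay down, had the high score of 14.528 with the motif centre 7 bp from the summit, at chr1:153262710-153262770 on the plus strand, and moderate accessibility. The member nearest to Sparc, a matrix glycoprotein gene, was 53744 bp from its start, in an intron of G3bp1 at chr11:55476960-55477020 on the plus strand, closed and with a score of 12. The fourth, 42977 bp from Pth1r, a parathyroid hormone receptor gene, lay in an intron of Ccdc12 at chr9:110699764-110699824 on the plus strand, with a score of 7.8982 and moderate accessibility.

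At the signalling genes, a closed member lay 1200 bp from a start of Fgfr1, the other FGF receptor of the list, in an intron at chr8:25559238-25559298 on the plus strand, with a score of 8.9815 and no SOX17, OCT4:SOX2 or ESRRB motif. A closed member in an intron of Lgr4, a receptor for R-spondins in WNT signalling, was 6470 bp from a start at chr2:109924008-109924068 on the plus strand and scored 6.8148. A closed member in an intron of Lifr, a subunit of the LIF receptor, was 4999 bp from a start and had no GATA6 motif, but 3 OCT4:SOX2 motifs, the best with a score of 10.618.

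No single gene had the most members near it, and these counts were not tested. The highest number within 100 kb was 4 members, reached by 8 genes: Ank3, Fam69a, Jarid2, Manba, Mtf2, Rpl5, Tcf7l1 and Usp7. Jarid2 and Mtf2 encode cofactors of Polycomb repressive complex 2, and Tcf7l1 encodes a repressor of WNT targets in ES cells. Fam69a, Mtf2 and Rpl5 are neighbours on chromosome 5. Over all GATA6 regions these genes had from 8 (Rpl5) to 36 (Ank3) regions in the same distance.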

How the data were processed

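The values came from the deposited table of GATA6 regions, which has 42403 rows and 105 columns, of which 34 were used. A further 59 columns of signal per time point, assay or cell type match no library of the series and, like 12 columns of grouped motifs, were not used. According to the study's methods and the submitters' processing notes, the authors used bcl2fastq, cutadapt, Bowtie2 (mm10) and SAMtools, called peaks with MACS2 on merged replicates that had to be found in each, and clustered GATA6 signal by k-means. The deposited motif score is the FIMO log-odds score of JASPAR matrices, with no normalization, and the Oct4 knockdown class came from DESeq2 run by the authors. Positions and classes were used as deposited.

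Positions were checked against GRCm38: every repeated motif sequence had 1 score. The 4 scoring matrices, recovered by least squares, gave back the deposited best score in 100% of regions with a motif. Windows of 100 bp on each side of the summits were scanned with them, and summits were annotated with GENCODE M21. The pooled values have no depth or replicate error, since the columns used hold no count. Odds ratios carry 95% Woolf intervals, with 0.5 added where a cell was 0, and stratified values are Mantel-Haenszel estimates. The routines for odds ratios, adjustment, matrix recovery and word search were tested on simulated data, and the other steps were not. Members, lists, words and comparisons were chosen with earlier results of these data known. Named regions were those of the highest GATA6 scores near the summit, accessible members without a GATA6 motif, the member with most motifs, members nearest to listed genes, and genes with most members within 100 kb. No sequence of chromosome 18 is shown. Alternatives were thinning, width and accessibility strata, other windows, limits and distances. Tools were scipy 1.17.1, pandas 2.3.3, numpy 2.4.6, statsmodels and pysam under Python 3.11.15.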

Additional observations from a re-analysis of the deposited data

How the results depend on the processing

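Each of the 30 tables and the count of words was recomputed with 1 choice changed at a time, 134 values in all, and 124 kept their direction and their side of the threshold. With no 2 summits of a class within 50 kb, this held for 30 of 30 tables, and the largest move was 0.18 on the log2 scale. Within accessibility classes, the log2 odds ratios against active regions were 0.05 for the GATA6 motif, 0.16 for a high score and 0.77 for Oct4 knockdown, which no longer passed, and 0.49 for the ESRRB motif, which then did, as did -0.44 for GC content against Early primed regions. Within 10 bins of width, lowered binding against PTF-bound primed regions was -0.63 and no longer passed. The ESRRB motif against PTF-bound primed regions was 0.37 in windows of 50 bp and 0.19 in windows of 200 bp on each side, neither of which passed, and against active regions it changed sign to -0.02 at 200 bp. With moderate regions counted as open, the value against Early primed regions was 0.84 and passed. The number of words past the threshold was 9 in each alternative, and the words that changed sign had not passed: TGTTTAC (-0.10) and TTCNNNGAA (-0.27) with control windows 10 kb away, and TTCNNNGAA (-0.42) in windows of 50 bp on each side. The causes of these moves were not tested. At 20 kb, 0.201%, 0.134% and 0.535% of members lay near pluripotency, PrE and signalling genes, beside 0.323%, 0.453% and 0.347% of all regions. The pluripotency and signalling shares fell below their intervals at 100 kb. A member within 20 kb is also within 100 kb, so these shares could only fall or stay the same.

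No paired analysis was possible because no library value entered any test. The depth behind the classes is unknown, a missing peak can be an undetected one, and regions near each other are not independent.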
